A study of Mus musculus with 6 samples.

Results

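Nuclear-encoded subunits of respiratory complexes II, III and IV, cytochrome c and the subunits of ATP synthase (complex V) were measured by RNA-seq in RAW 264.7 cells, a mouse macrophage-like line, with and without knockdown of Usp8, which encodes a deubiquitinase. Members were the genes named Sdha to Sdhd, Cyc1 and Cycs and those whose symbols begin with Uqcr, Cox4, Cox5, Cox6, Cox7, Cox8 or Atp5. Symbols with -ps, which mark pseudogenes, were left out. The rule found 50 members among 55291 gene symbols, with 4 in complex II, 10 in complex III with cytochrome c, 19 in complex IV and 17 in complex V. The 3 shUSP8 libraries carried a short hairpin RNA against Usp8 and the genotype label of a knockdown. The 3 shCtrl libraries carried a control hairpin and the genotype label WT. All 6 came from cells held for 4 days in medium with RANKL at 50 ng/mL, the cytokine that turns these cells into osteoclasts. The labels give ascites as the source of the line. Nothing in the labels says that the libraries within a group were grown as separate cultures. The p-values cover the variation among these 6 libraries alone, and that variation may be technical.

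Complex II oxidises succinate, complex III passes the electrons on to cytochrome c, and complex IV uses them to reduce oxygen to water. Complexes III and IV pump protons across the inner mitochondrial membrane, and ATP synthase lets them flow back through a ring of c subunits to make ATP. All subunits of complex II and cytochrome c are nuclear-encoded, whereas complexes III, IV and V are assembled from nuclear subunits and a few made inside mitochondria. Osteoclasts are rich in mitochondria, and their formation is accompanied by a rise in oxidative metabolism.

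The libraries held between 19973522 and 20213939 expected counts, which are estimated fragments per gene. Usp8 itself, given as CPM (counts scaled to library size with TMM factors), stood at 32.0, 34.8 and 35.1 in shUSP8 against 141.0, 129.4 and 136.7 in shCtrl (log2 fold change -2.0, SE 0.06, adjusted p = 1.47e-10 in edgeR's quasi-likelihood test, n = 3 each). The summed level of 9 macrophage and osteoclast markers was 12345 to 12790 CPM in shUSP8 and 14963 to 15246 CPM in shCtrl. Of these 9, Csf1r, Cd68, Acp5, Ctsk and Mmp9 fell on counts, and Ptprc, Oscar and Ocstamp did not pass. Ctsk passed narrowly (adjusted p = 0.0496) and missed the threshold with any 1 library left out. Csf1r missed it without shUSP8 replicate 3, shCtrl replicate 1 or shCtrl replicate 2. On log2(TPM + 1), a scale set out below, limma gave Ctsk -0.01 (adjusted p = 0.856). The same test called Ocstamp higher (0.24, adjusted p = 0.0429). Adgre1, which encodes a macrophage surface protein, rose, with 46.1, 45.6 and 42.9 CPM in shUSP8 against 20.5, 25.2 and 24.8 CPM in shCtrl (log2 fold change 0.93, adjusted p = 2.79e-06). The T cell markers Cd3e and Cd3g, the B cell marker Ms4a1 and the neutrophil marker Ly6g were at 0 in every library. The neutrophil list summed to 0.684 to 0.878 CPM in shUSP8 and 0.258 to 0.405 CPM in shCtrl, and the stromal list to 6.05 to 7.17 CPM in shUSP8 and 5.63 to 14.0 CPM in shCtrl, with Bglap at 0. The part of these marker differences in the subunit values was not tested. Fewer cells of a type and less RNA per cell cannot be told apart in such bulk samples. One library stood apart in fragment length. The estimated mean fragment was 367.2 nt in shUSP8 replicate 2, against 300.3 ± 6.27 nt (SD, n = 5) in the other libraries, and this library was low for short transcripts. Results are therefore given on 3 scales: counts, counts with each gene's effective length (the positions at which a fragment can start) as an offset, and TPM, a relative abundance per length.

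Many subunit transcripts of complexes III, IV and V were lower in shUSP8 cells, by modest amounts, and those of complex II differed less. Of 44 members with enough counts to test, 24 fell and 1 was called higher at an adjusted p below 0.05, where 14.9% of the 12440 genes tested fell and 17.8% rose. The log2 fold change was below 0 in 43 of the 44, with a median of -0.36 (a fold of 0.781), against a median of -0.0049 over all genes. The members that fell were 2 of 4 tested in complex II, 6 of 10 in complex III with cytochrome c, 6 of 13 in complex IV and 10 of 17 in complex V. The median log2 fold change was -0.17 in complex II, -0.38 in complex III, -0.34 in complex IV and -0.38 in complex V. The member called higher was Cox6a2, a muscle form of a complex IV subunit present here at a very low level. It passed the filter on low counts through its shUSP8 libraries, so that its call does not support a rise. The complex II genes were all long, with effective lengths of 829 to 2390 nt. Over the 43 tested members other than Cox6a2, log2 fold change on counts followed effective length (Pearson r 0.72 on log2 length, Spearman rho 0.72). The Pearson r was 0.33 with offsets and 0.36 on log2(TPM + 1). These points are genes of the same libraries and are not independent. The part of length in the difference between complexes was not tested. The groups were apart in CPM, with shUSP8 lower, for 37 of the 44 members, where 23.1% of all genes were so. DESeq2 gave 26 that fell (12.5% of all genes did) and 1 called higher (13.6%). The count that fell on edgeR's test was 14 without shUSP8 replicate 3 (10.5% of all genes fell) or without shCtrl replicate 3 (10.3%). It was 15 without shCtrl replicate 1 (11.1%) or without shCtrl replicate 2 (9.81%), with medians between -0.38 and -0.35.

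**Figure D1:**
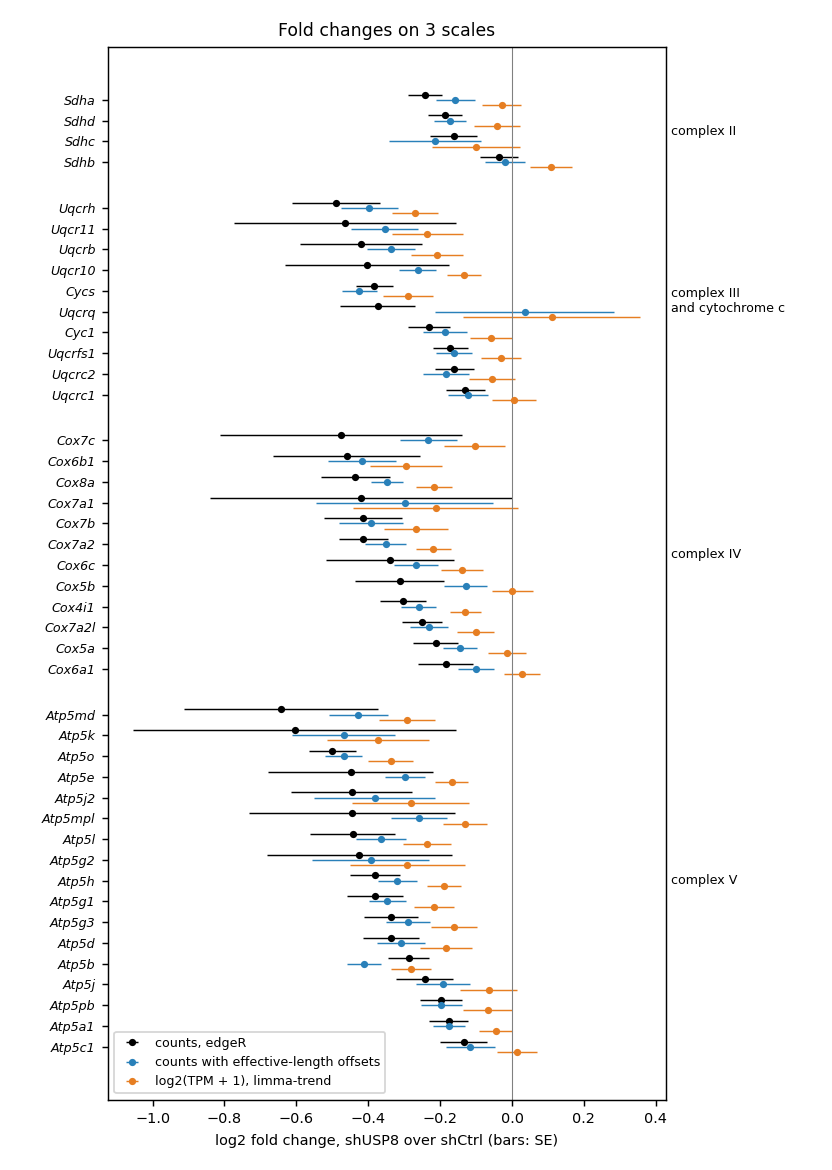
Log2 fold change of shUSP8 over shCtrl (x axis) for the 43 tested members other than Cox6a2, by complex, from counts, from counts with effective-length offsets and from log2(TPM + 1), with bars of 1 SE. On counts all 43 lie below 0, and the points from log2(TPM + 1) lie nearer to 0 for most.

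The fall was smaller on the other scales. With effective-length offsets 25 members fell (9.9% of all genes did) and 1 was called higher (12.2%), with a median log2 fold change of -0.26. On log2(TPM + 1), tested with limma, 11 members fell (4.02% of all genes did) and 1 was called higher (19.1%), with a median difference of -0.14. The TPM scale moved the median of all genes to 0.11, and 42 of the 44 members lay below that median. In TPM the groups were apart, with shUSP8 lower, for 22 of the 44 members, where 9.12% of all genes were so. By complex, 0 members fell on this scale in complex II, 2 in complex III with cytochrome c, 2 in complex IV and 7 in complex V, and 1, 5, 7 and 12 fell in the same order of complexes with offsets. In complex II limma on log2(TPM + 1) also gave 0 at an unadjusted p under 0.05, whereas DESeq2 on counts gave 2 that fell.

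A set of 9 members fell on counts, with offsets and on log2(TPM + 1) alike: Cycs, Uqcrh, Cox7a2, Cox8a, Atp5b, Atp5g1, Atp5h, Atp5l and Atp5o, against 3.82% of all genes. Of these, the 6 genes Cycs, Cox7a2, Atp5b, Atp5g1, Atp5h and Atp5o, fell in each of the 16 settings run, where 3.35% of all genes did. Of the 6, 4 belong to ATP synthase, 1 to complex IV and 1 is cytochrome c.

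The 250 bases upstream of the start annotated by RefSeq (GRCm38.p6) are shown for the member with the smallest adjusted p in each complex, and for Atp5h as the next in complex V. The windows lie at chr13:74350241-74350490 (Sdha), chr6:50566570-50566819 (Cycs), chr9:79759854-79760103 (Cox7a2), chr16:91931631-91931880 (Atp5o) and chr11:115419920-115420169 (Atp5h), all on the minus strand and all written 5′ to 3′ in the direction of transcription. Capitals mark the NRF1 core TGCGCA, the ETS core CCGGAAG or the YY1 core ATGGCGG, read on both strands.
Sdha: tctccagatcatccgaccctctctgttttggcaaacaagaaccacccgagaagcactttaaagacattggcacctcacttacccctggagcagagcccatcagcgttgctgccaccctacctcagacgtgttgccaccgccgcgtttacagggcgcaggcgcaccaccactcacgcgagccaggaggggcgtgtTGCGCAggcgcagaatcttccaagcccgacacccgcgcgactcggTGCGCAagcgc
Cycs: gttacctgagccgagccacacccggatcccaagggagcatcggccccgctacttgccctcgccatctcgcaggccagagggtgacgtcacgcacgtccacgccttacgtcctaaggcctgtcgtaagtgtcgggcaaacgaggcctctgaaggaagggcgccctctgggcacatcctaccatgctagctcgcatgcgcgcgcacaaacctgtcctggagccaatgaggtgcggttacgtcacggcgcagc
Cox7a2: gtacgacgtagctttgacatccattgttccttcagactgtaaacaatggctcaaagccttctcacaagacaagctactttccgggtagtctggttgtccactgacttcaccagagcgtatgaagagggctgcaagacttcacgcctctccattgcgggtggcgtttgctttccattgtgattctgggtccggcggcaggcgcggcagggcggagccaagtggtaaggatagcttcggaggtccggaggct
Atp5o: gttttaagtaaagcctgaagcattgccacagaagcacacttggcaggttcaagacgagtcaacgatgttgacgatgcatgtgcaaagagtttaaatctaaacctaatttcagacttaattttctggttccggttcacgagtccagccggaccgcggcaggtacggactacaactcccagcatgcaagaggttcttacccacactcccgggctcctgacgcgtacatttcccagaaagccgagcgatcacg
Atp5h: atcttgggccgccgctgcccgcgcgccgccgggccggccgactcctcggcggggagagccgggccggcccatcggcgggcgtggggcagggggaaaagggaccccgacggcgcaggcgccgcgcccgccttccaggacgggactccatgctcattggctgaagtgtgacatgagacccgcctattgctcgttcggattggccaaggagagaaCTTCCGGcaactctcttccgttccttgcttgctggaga

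The Sdha window held the NRF1 core at a pair of places, the Atp5h window held an ETS core read on the opposite strand, and the other 3 windows held none of the searched letters. Of the 50 members, 37 matched a RefSeq promoter window of 300 bases, from 250 before the start to 50 after it. The NRF1 core was found in 8 of these 37 members (21.6%), against 16.4% of 9361 tested genes with a window and 8.79% of all 27025 genes with one. The ETS core was found in 13 of 37 (35.1%), against 21.3% of tested genes and 9.93% of all genes. The YY1 core was found in 2 of 37 (5.41%), against 9.90% of tested genes and 4.69% of all genes. Members that fell on counts held the NRF1 core in 4 of 19 windows, the ETS core in 6 of 19 and the YY1 core in 2 of 19, against 4 of 15, 7 of 15 and 0 of 15 for tested members that did not fall. The median GC content was 56.5% in the members' windows and 60.7% in those of tested genes. These matches describe letters in the windows and do not show binding.

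**Figure D2:**
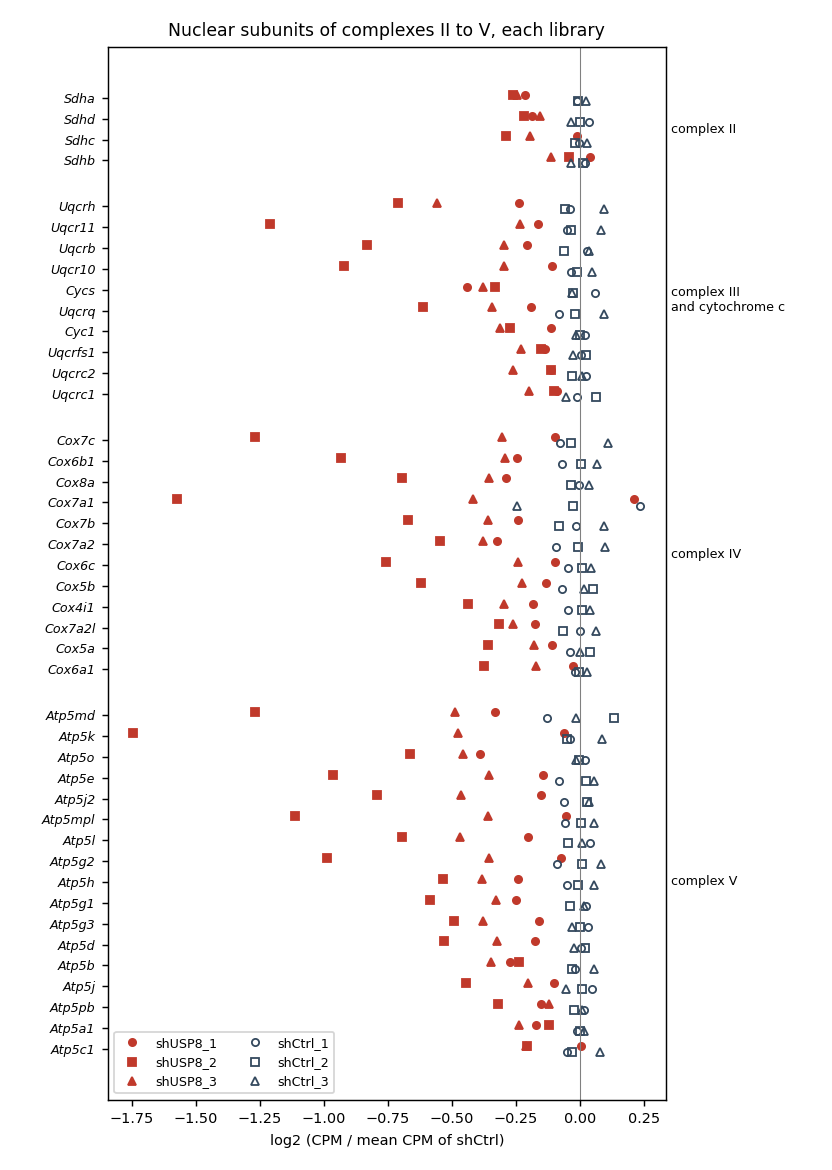
Log2 ratio of TMM-normalised CPM to the shCtrl mean of the same member (x axis), for each tested member other than Cox6a2 in the 6 libraries, by complex. Most shUSP8 points lie below the shCtrl points, and shUSP8 replicate 2 is the lowest of the 6 libraries for 34 of the 44 tested members.

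Complex II showed the smallest median fall of the 4 groups. Sdha, the flavoprotein that oxidises succinate (chromosome 13, 74322254 to 74350280, minus strand, GRCm38), had 493.9, 478.1 and 483.0 CPM in shUSP8, against 568.5, 569.8 and 582.4 CPM in shCtrl. The groups did not overlap, and the log2 fold change was -0.24 (SE 0.05, adjusted p = 0.00212). Sdhd, a membrane anchor that helps to bind ubiquinone, had 229.5, 224.7 and 234.2 CPM in shUSP8, against 267.8, 260.9 and 254.8 CPM in shCtrl (log2 fold change -0.19, SE 0.05, adjusted p = 0.0101). The groups did not overlap for Sdhd either, but its adjusted p passed 0.05 without shCtrl replicate 1. The other membrane anchor, Sdhc, gave a log2 fold change of -0.16 (adjusted p = 0.0796), and the iron-sulphur subunit Sdhb gave -0.04 (adjusted p = 0.634). With offsets Sdha gave -0.16 (adjusted p = 0.0753) and Sdhd -0.17 (adjusted p = 0.0282). On log2(TPM + 1) neither passed the test, with -0.03 for Sdha (adjusted p = 0.735) and -0.04 for Sdhd (adjusted p = 0.661), and Sdhb had the opposite sign at 0.11 (adjusted p = 0.223).

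Among complex III and cytochrome c, the mobile carrier itself gave the smallest p. Cycs, which encodes somatic cytochrome c (chromosome 6, 50562563 to 50566538, minus strand), had 97.0, 104.4 and 101.2 CPM in shUSP8, against 137.0, 129.0 and 128.6 CPM in shCtrl. It was lower in 3 of 3 shUSP8 libraries, with a log2 fold change of -0.38 (SE 0.05, adjusted p = 1.22e-04), -0.42 with offsets (adjusted p = 5.50e-04) and -0.29 on log2(TPM + 1) (adjusted p = 0.0228). Cycs was also the member of this group with the lowest level per length, at 55.3 TPM in shCtrl, where Uqcr10 was the highest at 1081 TPM. In Cycs the library with long fragments was not the lowest of the shUSP8 libraries.

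Of the subunits that carry electrons through complex III, both nuclear ones fell on counts. Cyc1, which encodes cytochrome c1, had 299.0, 267.0 and 260.0 CPM in shUSP8, against 327.2, 322.8 and 319.4 CPM in shCtrl (log2 fold change -0.23, SE 0.06, adjusted p = 0.00944). Uqcrfs1, the Rieske iron-sulphur protein, had 192.7, 190.6 and 180.6 CPM in shUSP8, against 212.3, 215.3 and 207.5 CPM in shCtrl (log2 fold change -0.17, SE 0.05, adjusted p = 0.0177). The groups of both genes did not overlap. Both missed the threshold with offsets, with an adjusted p of 0.0600 for Cyc1 and 0.0536 for Uqcrfs1. Both also missed it without shUSP8 replicate 3, and Uqcrfs1 without shCtrl replicate 1 or 2. On log2(TPM + 1) neither passed, with -0.06 for Cyc1 (adjusted p = 0.501) and -0.03 for Uqcrfs1 (adjusted p = 0.724). Of the core proteins, which hold no redox centre, Uqcrc2 fell (log2 fold change -0.16, adjusted p = 0.0401, and above 0.05 without shUSP8 replicate 3 or any 1 shCtrl library) and Uqcrc1 gave -0.13 (adjusted p = 0.0867). Uqcrc2 missed the threshold with offsets (adjusted p = 0.0723) and on log2(TPM + 1) (-0.06, adjusted p = 0.560).

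The calls of the small accessory subunits of complex III differed between scales. Uqcrh, the hinge protein that helps cytochrome c to dock, had 166.6, 120.1 and 133.4 CPM in shUSP8, against 191.4, 188.8 and 209.9 CPM in shCtrl (log2 fold change -0.49, SE 0.12, adjusted p = 0.0227). It also fell with offsets (-0.40, adjusted p = 0.00891) and on log2(TPM + 1) (-0.27, adjusted p = 0.0222), but not on counts without shUSP8 replicate 3 or without any 1 of the shCtrl libraries. Uqcr10, Uqcr11 and Uqcrb did not pass on counts, with log2 fold changes of -0.40, -0.46 and -0.42, and passed with offsets, with adjusted p of 0.00825, 0.0283 and 0.00949. Uqcrq fell on counts (log2 fold change -0.37, adjusted p = 0.0293), though not without shUSP8 replicate 3, shCtrl replicate 2 or shCtrl replicate 3, but had the opposite sign with offsets (0.04, adjusted p = 0.940) and on log2(TPM + 1) (0.11, adjusted p = 0.778). Its TPM was 557.5, 1048 and 552.1 in shUSP8, against 653.8, 619.5 and 633.7 in shCtrl. The high value stands in shUSP8 replicate 2, where its effective length was 106 nt against 243 to 277 nt in the other libraries.

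In complex IV the fall included the main form of subunit 4, the largest nuclear subunit. Cox4i1, the ubiquitous form of subunit 4 (chromosome 8, 120668222 to 120674207, plus strand), had 581.1, 487.7 and 537.2 CPM in shUSP8, against 638.6, 663.2 and 679.2 CPM in shCtrl. The groups did not overlap, with a log2 fold change of -0.30 (SE 0.06, adjusted p = 0.00359), -0.26 with offsets (adjusted p = 0.00675) and -0.13 on log2(TPM + 1) (adjusted p = 0.0695). Its alternative form Cox4i2, known as the lung form and as inducible by low oxygen, had 3, 2 and 5 expected counts in shUSP8, against 2, 0 and 5 in shCtrl, and was not tested. Cox4i1 made up 99.95% to 100% of the TPM of the pair in the 6 libraries, so the Cox4 pool was almost wholly 1 form in both groups.

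Cox7a2 gave the smallest p of complex IV. This form of subunit 7a, found in most tissues (chromosome 9, 79755361 to 79759878, minus strand), had 108.3, 92.6 and 104.3 CPM in shUSP8, against 126.8, 134.9 and 144.8 CPM in shCtrl (log2 fold change -0.41, SE 0.07, adjusted p = 6.15e-04). It also fell with offsets (-0.35, adjusted p = 0.00346) and on log2(TPM + 1) (-0.22, adjusted p = 0.0168), and in each left-out-library test. Cox7a2l, which links complexes III and IV in supercomplexes, had 221.0, 200.5 and 208.1 CPM in shUSP8, against 249.8, 238.8 and 260.8 CPM in shCtrl (log2 fold change -0.25, SE 0.06, adjusted p = 0.00418). The groups did not overlap for either gene. Cox7a2l fell with offsets (adjusted p = 0.0157) and missed the threshold on log2(TPM + 1), with -0.10 (adjusted p = 0.194). The muscle form Cox7a1 was much lower, at 3.12 ± 1.72 CPM in shUSP8 and 4.17 ± 0.702 CPM in shCtrl (SD, n = 3 each), with a log2 fold change of -0.42 (adjusted p = 0.501).

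Of the remaining subunits of complex IV, Cox5a, Cox7b and Cox8a fell on counts, with log2 fold changes of -0.21, -0.41 and -0.44. Cox5a and Cox7b missed the threshold without shUSP8 replicate 3 or shCtrl replicate 3, and also without shCtrl replicate 2 for Cox5a and shCtrl replicate 1 for Cox7b. Cox5a also missed it with offsets (adjusted p = 0.0646) and on log2(TPM + 1) (-0.01, adjusted p = 0.869). Cox7b passed with offsets (adjusted p = 0.0159) and missed it on log2(TPM + 1) (-0.27, adjusted p = 0.0665). Cox8a, the ubiquitous form of subunit 8, was among the 9 that fell on all 3 scales, but missed the threshold without shCtrl replicate 3. Cox6b1 and Cox6c passed only with offsets of the 3 scales, with log2 fold changes of -0.42 (adjusted p = 0.0161) and -0.27 (adjusted p = 0.0169). Cox5b, Cox6a1 and Cox7c passed on none of the 3 scales. On log2(TPM + 1) Cox5b was at 0.0012 and Cox6a1 at 0.03, so that neither kept the negative sign it had on counts. The tissue-restricted forms were nearly silent: Cox6b2, Cox7b2 and Cox8c were at 0 in every library, Cox8b had 11 expected counts in shUSP8 replicate 1 and 0 elsewhere, and Cox6c2, annotated as a processed pseudogene, had about 1 count in shCtrl replicate 1 and 0 elsewhere.

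Cox6a2, the heart and skeletal muscle form of subunit 6a (chromosome 7, 128205435 to 128206387, minus strand), was the member called higher. It had 4.10, 1.74 and 1.37 CPM in shUSP8, against 0.253, 0.505 and 1.03 CPM in shCtrl, from expected counts of 84, 36 and 28 in shUSP8 and 5, 10 and 20 in shCtrl. The groups did not overlap, but the lowest shUSP8 library and the highest shCtrl library lay close together. The fitted log2 fold change was 2.00 (SE 0.62, adjusted p = 0.0497), 2.05 with offsets (adjusted p = 0.0349) and 1.67 on log2(TPM + 1) (adjusted p = 0.0251). These values are a description, since the gene entered the test through its shUSP8 libraries. It was not called without shUSP8 replicate 2, without shCtrl replicate 1, without shCtrl replicate 2 or with the replicate number as a block. The ubiquitous form Cox6a1 still supplied almost all of the transcripts: Cox6a2 was 0.862%, 0.426% and 0.316% of their summed TPM in shUSP8, against 0.0524%, 0.104% and 0.209% in shCtrl.

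ATP synthase held 5 of the 9 members that fell on all 3 scales. Atp5o, the stalk subunit OSCP that joins the catalytic head to the peripheral stalk (chromosome 16, 91925214 to 91931687, minus strand), had 181.5, 150.1 and 173.2 CPM in shUSP8, against 241.2, 237.3 and 235.3 CPM in shCtrl. All 3 shUSP8 libraries lay well below the tight shCtrl values, a fold of 0.707 (log2 fold change -0.50, SE 0.07, adjusted p = 1.07e-04, the smallest p of all members). Its fall was -0.47 with offsets (adjusted p = 4.77e-04) and -0.34 on log2(TPM + 1) (adjusted p = 0.00809). The row for Atp5o combines 7 transcripts, of which 6 belong to this locus in GENCODE M21 and 1 to an overlapping gene record of the same name.

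Other parts of the peripheral stalk fell as well. Atp5h, stalk subunit d (chromosome 11, 115415689 to 115419962, minus strand), had 111.3, 90.7 and 100.9 CPM in shUSP8, against 127.0, 130.9 and 136.7 CPM in shCtrl (log2 fold change -0.38, SE 0.07, adjusted p = 0.00135). It fell with offsets (-0.32, adjusted p = 0.00475) and on log2(TPM + 1) (-0.19, adjusted p = 0.0253), with no overlap of the groups on counts. Stalk subunit b, Atp5pb, fell by 0.20 on the log2 scale (adjusted p = 0.0223) and the coupling factor Atp5j fell by 0.24 (adjusted p = 0.0384). Both missed the threshold on log2(TPM + 1) and without any 1 shCtrl library, and Atp5j also without shUSP8 replicate 2 or 3.

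Of the subunits alpha to epsilon of ATP synthase, the alpha, beta and delta subunits fell on counts. Atp5b, the catalytic beta subunit (chromosome 10, 128083273 to 128090391, plus strand), had 2288, 2346 and 2173 CPM in shUSP8, against 2728, 2706 and 2872 CPM in shCtrl (log2 fold change -0.29, SE 0.06, adjusted p = 0.00215). It had the highest level of all members, at 5600 TPM in shCtrl, and fell in each left-out-library test. Its log2 fold change was larger in size with offsets, at -0.41 (adjusted p = 6.75e-04). Its effective length was 624, 598 and 567 nt in shUSP8 against 534, 560 and 560 nt in shCtrl, all longer in shUSP8. The row combines 9 transcripts of 343 to 1916 nt, so its TPM depends on how reads were divided among them. Atp5a1, the alpha subunit present in equal number with beta in the enzyme, had 1310, 1357 and 1249 CPM in shUSP8, against 1462, 1473 and 1490 CPM in shCtrl (log2 fold change -0.18, adjusted p = 0.0241, and above 0.05 without shUSP8 replicate 3 or any 1 shCtrl library). The delta subunit Atp5d fell by 0.34 on the log2 scale (adjusted p = 0.00742). Atp5a1 and Atp5d passed with offsets and missed the threshold on log2(TPM + 1), with an adjusted p of 0.515 and 0.106. The gamma subunit Atp5c1, the rotor shaft, gave -0.13 (adjusted p = 0.141), and the epsilon subunit Atp5e gave -0.45 (adjusted p = 0.221) and passed with offsets (-0.30, adjusted p = 0.00703).

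The c subunit, which forms the proton-driven ring, is encoded by 3 genes whose mature products are the same protein. Atp5g1 had 116.9, 92.4 and 110.6 CPM in shUSP8, against 141.1, 135.0 and 140.4 CPM in shCtrl (log2 fold change -0.38, SE 0.08, adjusted p = 0.00366). Atp5g3 had 342.8, 272.2 and 294.6 CPM in shUSP8, against 391.7, 383.1 and 374.4 CPM in shCtrl (log2 fold change -0.34, SE 0.08, adjusted p = 0.00565). The groups of both genes did not overlap. Atp5g2 had 190.9, 101.3 and 157.1 CPM in shUSP8, against 188.8, 202.0 and 212.6 CPM in shCtrl, so that the groups overlapped through shUSP8 replicate 1 (log2 fold change -0.43, SE 0.26, adjusted p = 0.292). Atp5g2 passed the test in 0 of the 16 settings. On log2(TPM + 1) Atp5g1 fell (-0.22, adjusted p = 0.0293) and Atp5g3 did not pass (-0.16, adjusted p = 0.105). Their difference from Atp5g2 was not tested gene against gene.

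The shares of the 3 genes in the c-ring pool overlapped between the groups. Summed over them, TPM was 1739 ± 136 in shUSP8 and 1999 ± 77.3 in shCtrl (SD, n = 3 each). Atp5g3 supplied 51.6%, 56.4% and 51.1% of it in shUSP8, against 52.7%, 51.8% and 50.0% in shCtrl (two-sided exact permutation p = 0.6). Atp5g2 supplied 27.9%, 20.3% and 26.5% in shUSP8, against 24.7%, 26.5% and 27.6% in shCtrl (exact permutation p = 0.8). Atp5g1 supplied 20.5%, 23.3% and 22.4% in shUSP8, against 22.7%, 21.7% and 22.4% in shCtrl (exact permutation p = 0.8). With 3 libraries against 3 the smallest p that this test can give is 0.1, so no share of the 8 compared could pass 0.05, also after adjustment. Within subunit 7a, Cox7a2l supplied 45.4%, 45.1% and 45.5% of TPM in shUSP8, against 44.1%, 42.4% and 43.5% in shCtrl. These groups did not overlap, and the exact permutation p was 0.1.

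**Figure D3:**
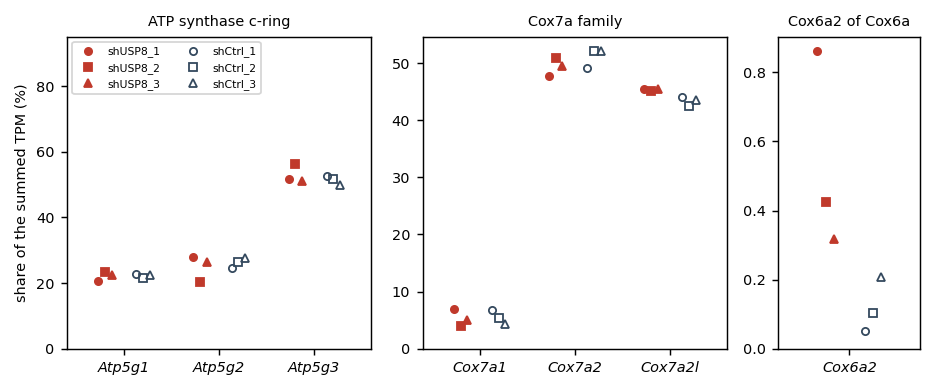
Share of each form in the summed TPM of its family, in percent, for the c-ring genes, the Cox7a family and Cox6a2 within Cox6a (each panel on its own scale), with 1 point per library. The c-ring shares of the groups overlap for all 3 genes, and Cox6a2 stays below 1% of the Cox6a pool in each library.

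The calls of the small membrane subunits of ATP synthase also differed between scales. Atp5l, subunit g, fell on counts (log2 fold change -0.44, SE 0.12, adjusted p = 0.0281), with offsets (adjusted p = 0.00724) and on log2(TPM + 1) (adjusted p = 0.0399). It missed the threshold on counts without shUSP8 replicate 3 or any 1 shCtrl library. Atp5md, known as DAPIT, had the lowest log2 fold change of all members on counts, at -0.64 (SE 0.27), and did not pass (adjusted p = 0.152). It passed with offsets (-0.43, adjusted p = 0.00769) and on log2(TPM + 1) (adjusted p = 0.0316). Atp5mpl passed with offsets only (-0.26, adjusted p = 0.0473), and Atp5j2 passed on none of the 3 scales. Atp5k, subunit e, had 45.3, 14.1 and 34.1 CPM in shUSP8, against 46.1, 45.8 and 50.3 CPM in shCtrl (log2 fold change -0.60, SE 0.45, adjusted p = 0.384). Its groups did not overlap, yet shUSP8 replicate 2 lay far below both other shUSP8 libraries.

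That library was low across the short members. Effective length had a median of 412.9 nt among the members and 2001 nt among all genes, and 25 of the 44 members (56.8%) were under 500 nt against 6.62% of all genes. In CPM, shUSP8 replicate 2 was the lowest of the 6 libraries for 34 of 44 members (77.3%), against 2477 of 12379 genes in all. Its log2 ratio to the other shUSP8 libraries had a median of -0.29 over the members and -0.0030 over all genes. Across the 44 members this ratio followed effective length, with a Pearson r of 0.83 on log2 length and a Spearman rho of 0.86. Over the 12379 genes in all, r was 0.34 and rho was 0.41. The points of these correlations are genes of the same libraries and are not independent.

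**Figure D4:**
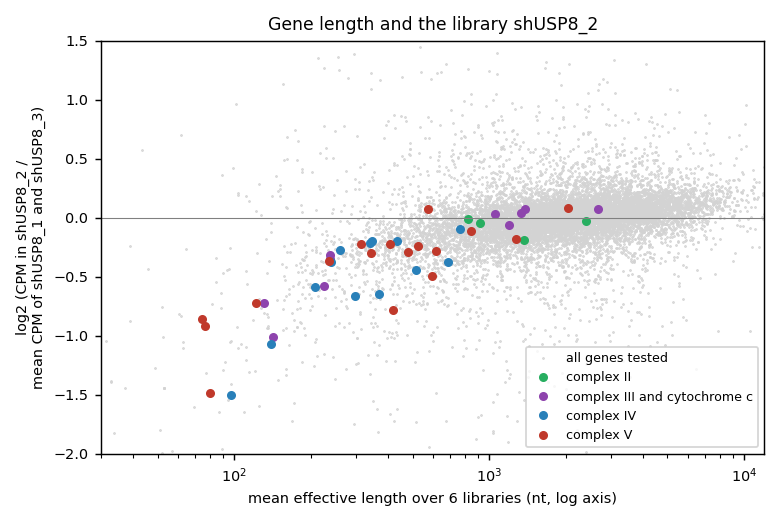
Log2 ratio of CPM in shUSP8 replicate 2 to the mean of the other shUSP8 libraries against effective length (log axis, nt), for the members and for all genes tested, without genes beyond the axis limits. Members under 500 nt lie mostly below 0, and the median over the 44 members is -0.29.

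The lower level of the subunit transcripts was also measured without that library. With it left out, 32 members fell (14.8% of all genes did) and 0 were called higher (16.8%; Cox6a2 was higher at an unadjusted p under 0.05), with a median log2 fold change of -0.21. With offsets and without it, an alternative added after the data had been seen, 28 fell (9.67% of all genes did) and 1, Cox6a2, was called higher (11.4%), with a median of -0.25. Among the 25 members under 500 nt, 11 fell on counts with a median of -0.42, 16 fell with offsets with a median of -0.30, and 17 fell without the library with a median of -0.25. Of the same 25, 8 fell on log2(TPM + 1), with a median of -0.19. Of all 820 genes under 500 nt, 16.5% fell on counts with a median of -0.18, 12.3% with offsets, 16.6% without the library and 6.22% on log2(TPM + 1). Among the 19 longer members, 13 fell on counts with a median of -0.23, 9 with offsets with a median of -0.19, and 15 without the library with a median of -0.21. Of the same 19, 3 fell on log2(TPM + 1), with a median of -0.06. Of all 11559 genes of 500 nt or more, 14.9% fell on counts, 9.73% with offsets, 14.9% without the library and 3.87% on log2(TPM + 1). The part of fragment length in the subunit values was not tested beyond these settings.

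Summed levels per length differed between complexes. The summed TPM of complex V was 13279 ± 332 in shUSP8 and 15461 ± 514 in shCtrl (SD, n = 3 each), a ratio of 0.859. Of these sums Atp5b, whose TPM depends on how reads were divided among its transcripts, made up 4610 and 5600 in that order. The summed TPM of complex IV was 8732 ± 28.8 in shUSP8 and 9485 ± 249 in shCtrl, a ratio of 0.921. The groups of both complexes did not overlap. That of complex III with cytochrome c was 4521 ± 222 in shUSP8 and 4871 ± 144 in shCtrl, a ratio of 0.928, with shUSP8 replicate 2 at 4770, of which Uqcrq was 1048, just under the lowest shCtrl sum of 4782. Complex II gave 1021 ± 10.4 in shUSP8 and 1022 ± 35.3 in shCtrl, a ratio of 0.999. These ratios stand on a scale where the median log2(TPM + 1) difference of all genes was 0.11. Below that median lay 4 of 4 tested members in complex II and 9 of 10 in complex III with cytochrome c. So did 12 of 13 in complex IV and 17 of 17 in complex V. All members together took 2.76% of TPM in shUSP8 and 3.08% in shCtrl. Differences between complexes were not tested. In shCtrl the levels ranged from 158.7 to 314.2 TPM among complex II genes and from 249.1 to 5600 TPM among complex V genes.

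**Figure D5:**
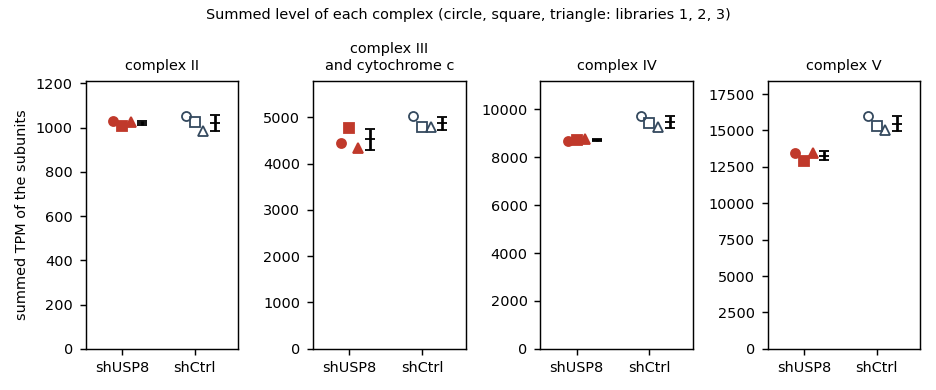
Summed TPM of each complex in the 6 libraries, each panel on its own scale from 0, with group means and SD. The complex II groups overlap, and the sums of shUSP8 lie below those of shCtrl in the other complexes, narrowly in complex III.

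Of 39 assembly factors of complexes II to V tested, which help to build these complexes, 5 fell and 2 rose on counts, where 14.9% of all genes fell and 17.8% rose. Their median log2 fold change was -0.09, and the 2 called with offsets were both lower. Those with the smallest p were Higd1a, which helps complexes III and IV to assemble, Cox10, an enzyme of the haem synthesis that complex IV needs, Cox14, which acts early in the assembly of mt-Co1, and Atpaf1, a chaperone of the beta subunit. Higd1a had 41.0, 32.4 and 36.2 CPM in shUSP8, against 53.0, 47.2 and 52.1 CPM in shCtrl (log2 fold change -0.47, SE 0.08, adjusted p = 0.00118). Cox14 fell by 0.29 on the log2 scale (adjusted p = 0.0172), Cox10 rose by 0.22 (adjusted p = 0.0121) and Atpaf1 rose by 0.33 (adjusted p = 0.0238). Higd1a passed with each library left out, Cox14 without any 1 shUSP8 library but not without any 1 shCtrl library, Cox10 in all but that without shCtrl replicate 2, and Atpaf1 without shUSP8 replicate 1 or shCtrl replicate 2. None of these 4 passed with offsets, where the adjusted p was 0.117, 0.0618, 0.150 and 0.211 in that order (Higd1a, Cox14, Cox10, Atpaf1). The factors that fell with offsets were Uqcc2 and Cox17, a copper chaperone of complex IV, both named after their values were seen. Cox17 had 93.6, 54.9 and 80.5 CPM in shUSP8, against 133.8, 130.6 and 142.5 CPM in shCtrl (log2 fold change -0.83, adjusted p = 0.0420 on counts, and -0.67, adjusted p = 1.99e-04 with offsets). On counts it missed the threshold without shUSP8 replicate 3 or any 1 shCtrl library.

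The carriers that supply ATP synthase with ADP and phosphate also fell on counts. The ADP/ATP carriers Slc25a4 and Slc25a5 had log2 fold changes of -0.43 (SE 0.05, adjusted p = 8.40e-05) and -0.31 (SE 0.06, adjusted p = 0.00102). The phosphate carrier Slc25a3 had -0.23 (SE 0.06, adjusted p = 0.00909), and all 3 also fell with offsets. Slc25a4 and Slc25a5 fell on log2(TPM + 1) as well, where Slc25a3 did not pass (-0.10, adjusted p = 0.330). Atpif1, the inhibitor of ATP synthase, was at 122 ± 25.3 CPM in shUSP8 and 114 ± 7.49 CPM in shCtrl (SD, n = 3 each) and did not pass on counts (0.09, adjusted p = 0.722), whereas it was higher on log2(TPM + 1) (0.31, adjusted p = 0.0271) and on counts without shUSP8 replicate 2 (0.25, adjusted p = 0.0150). Ndufa4, also placed in complex IV, gave -0.24 (adjusted p = 0.163), and its paralogs Ndufa4l2 and AA467197 were at or near 0.

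Of the partners encoded by mitochondrial DNA, mt-Cytb of complex III had 3612 ± 346 CPM in shUSP8 and 6444 ± 415 CPM in shCtrl (log2 fold change -0.84, SE 0.08, adjusted p = 6.03e-06). The complex IV subunit mt-Co1 fell by 0.40 on the log2 scale (adjusted p = 0.00209) and the ATP synthase subunit mt-Atp6 fell by 0.55 (adjusted p = 0.0130, and above 0.05 without shUSP8 replicate 2 or shCtrl replicate 3). Transcripts of mt-Co2, mt-Co3 and mt-Atp8 did not pass on counts, with log2 fold changes of -0.64, -0.57 and -0.49 (adjusted p of 0.0581, 0.330 and 0.592). mt-Cytb, mt-Co1 and mt-Atp6 also fell with offsets and on log2(TPM + 1), and mt-Co2 passed with offsets (-0.58, adjusted p = 0.0473) but not on log2(TPM + 1) (adjusted p = 0.119). The mitochondrial transcripts together took 2.69% to 3.03% of counts in shUSP8 and 3.84% to 4.31% in shCtrl.

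Of the tested members, 13 had expected counts that were not whole numbers, so some of their fragments were shared with other genes, and their values are less certain: Cycs, Uqcrc2, Cox5b, Cox6c, Cox7a2l, Cox7c, Atp5g1, Atp5g2, Atp5h, Atp5j, Atp5l, Atp5o and Atp5pb. Of the 10 pseudogene symbols left out, 3 had any counts. Cox5b-ps was the highest, with 18.5, 77.6 and 25.8 expected counts in shUSP8 against 35.0, 32.1 and 44.8 in shCtrl.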

How the data were processed

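Total RNA was sequenced as 150-base pairs on a DNBSEQ instrument, per the labels. The deposited expected counts are estimates of fragments per gene, and 7.16% of them are not whole. The deposited TPM values relate them to effective length and library. RSEM, DESeq2 1.28.1 and mm10 are named, without roles, per the submitters' processing notes. The aligner is not given in the sources used here, nor is the annotation. Columns marked WT were matched to shCtrl and those marked KO, letters that no label uses, to shUSP8, which has the only other genotype label, each by the number in the title.

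The test was edgeR 4.0.16 under R 4.3.3, on rounded expected counts, with robust quasi-likelihood fits and TMM factors. Its filterByExpr kept genes by a count of 10 per library and 15 in total. Adjusted p is Benjamini-Hochberg over all 12440 genes, threshold 0.05, and SE is the absolute log2 fold change over the square root of F. Effective length is expected count over TPM, scaled to nt, and fragment length came from single-transcript genes. Offset fits covered 12379 genes. TPM was tested with limma 3.58.1 on log2(TPM + 1), which understates changes of low genes. DESeq2 1.42.0 was an alternative. Effective-length offsets came from earlier work on these data. The 6 members with few counts were not tested, and Cox6a2 passed the filter through its shUSP8 libraries. Coordinates are GENCODE M21, in which 98.7% of transcripts matched.

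Values are given in every library for the 3 members of each complex with the smallest p among those called lower, members called higher, c-ring genes and Cox4 forms. Up to 4 assembly factors by smallest p and a set of partner genes were also named. Other genes given per library (Uqcrh, Uqcrq, Atp5a1, Atp5k, Cox17, Cox5b-ps and the markers Adgre1, Cd4 and S100a8) were chosen after their values were seen. Members and lists were chosen with earlier results of these data known. The chi-square per gene was 2.26 between shCtrl replicates 1 and 2 and 5.06 to 18.3 in the remaining pairs, so no library was counted as a duplicate.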

Additional observations from a re-analysis of the deposited data

How the results depend on the processing

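Alternatives changed how many subunit genes passed far more than their direction. Over 660 values of the 44 members, 511 kept direction and side of the threshold. Of the rest, 92 kept direction but no longer passed, 42 kept direction and newly passed, and 15 changed sign. Uqcrq, which changed sign with offsets and on log2(TPM + 1), also no longer passed there. The cause of these changes was not tested. Those that fell (24 on counts) were 11 on log2(TPM + 1) and 11 on log2(TPM + 0.1), and those called higher (1 on counts) were 2 without the filter on low counts (Cox6a2 and Cox8b). In complex II (2 on counts) 1 fell with library totals, 0 and 0 on the TPM scales and 1 with effective-length offsets. In complex III (6) 3 fell with library totals and 2 and 2 on the TPM scales, and in complex IV (6) 2 and 2 fell on the TPM scales. Assembly factors that fell (5) were 3 with library totals, 2 and 2 on the TPM scales, 2 with offsets and 2 with offsets without shUSP8 replicate 2. Those that rose (2) were 6 with library totals, 4 without the filter, 1 with DESeq2, 0 with offsets and 0 with offsets without shUSP8 replicate 2. Of all genes, 14.9% fell on counts, 9.42% with library totals, 4.02% and 3.955% on the TPM scales and 9.9% with offsets. With offsets without shUSP8 replicate 2 it was 9.67%. Genes that rose were 2218 of 12440 on counts, 3111 of 12440 with library totals and 2382 of 22000 without the filter. They were 1697 of 12440 with DESeq2, 1510 of 12379 with offsets and 1433 of 12548 with offsets without that library.

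With 1 library left out at a time, 14 to 32 members fell and 0 to 1 were called higher. By complex, 1 to 3 fell in complex II, 1 to 9 in complex III, 3 to 9 in complex IV and 6 to 12 in complex V. Of all genes, 9.81% to 16.5% fell in these fits, and from 1675 of 12625 to 2349 of 12579 rose. Complex II gave 1 without shCtrl replicate 1, complex III 1 without shUSP8 replicate 3, complex IV 3 without shCtrl replicate 3, and complex V 6 without any 1 shCtrl library. Assembly factors ranged from 1 to 9 that fell and from 1 to 2 that rose. The shUSP8 minus shCtrl difference in c-ring share lay between -0.79 and 0.60 percentage points for Atp5g1 (0.60 without shUSP8 replicate 1, 0.027 without shCtrl replicate 1). It lay between -2.87 and 0.94 for Atp5g2 and between -0.15 and 2.50 for Atp5g3. The same difference in share lay between -0.93 and 0.49 for Cox7a1 (0.49 without shUSP8 replicate 2, 0.47 without shCtrl replicate 1). For Cox6a2 it lay between 0.25 and 0.52, for Cox7a2 between -2.85 and -1.04 and for Cox7a2l between 1.54 and 2.38.

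Log2 fold changes that turned positive were those of Sdhb (0.037 with library totals, 0.108 and 0.109 on the TPM scales, -0.076 to 0.0027 with 1 library left out, the last without shUSP8 replicate 3), Uqcrc1 (0.00665 and 0.00667 on the TPM scales), Uqcrq (0.110 and 0.110 on the TPM scales, 0.035 with offsets), Cox5b (0.00122 and 0.00122), Cox6a1 (0.0284 and 0.0284) and Atp5c1 (0.0129 and 0.0129). The median over all genes was 0.110 on log2(TPM + 1), 0.127 on log2(TPM + 0.1) and 0.069 with library totals. Below these medians lay 42, 43 and 43 of the 44 members in that order. Atpif1 turned to -0.043 without shUSP8 replicate 1.

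Same-numbered libraries did not deviate together (r of -0.0093, 0.055 and -0.064), so the numbers were not taken as pairs. With the replicate number as a block in edgeR 23 members fell and 0 were called higher (0 also at an unadjusted p under 0.05). Of all genes, 13.6% fell and 2021 of 12440 rose in that fit. Depth was near equal between libraries, and Cox6a2 rests on few counts.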
